A study of Homo sapiens with 24 samples.

Results

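A set of Wnt pathway genes (10 of the 29744 genes in the deposited tables) was followed across HCC1806 and MDA-MB-231 cells whose genomes had doubled by different routes. They are the R-spondin receptors LGR4 and LGR5, the Dickkopf genes DKK1 and DKK3, the feedback genes AXIN2, NKD1, RNF43 and ZNRF3, and the transcription factors TCF7 and LEF1. The set was drawn up by name with earlier results of these data known, and its rule cites 2 of them, low DKK3 in fusion-derived HCC1806 cells and low LGR5 in fusion-derived MDA-MB-231 cells. Every comparison of fusion-derived cells with control is therefore given as a description without a test. HCC1806 and MDA-MB-231 are established lines of triple-negative breast cancer, a class defined by the lack of oestrogen receptor, progesterone receptor and HER2 amplification. In each line, a parental aneuploid population served as control beside populations doubled by cell fusion, by mitotic slippage (exit from mitosis without division) or by cytokinesis failure (division of the nucleus without division of the cell). The doubled cells were isolated by FACS and expanded, and all groups were grown for 48 hours before RNA isolation with no further treatment. The labels give 3 biological replicates for each of the 8 groups. They describe 1 derived population per route in a line, so that a route and the population that stands for it cannot be told apart, and neither can the doubling and the sorting and expansion that came with it.

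Canonical Wnt signalling stabilises beta-catenin, which enters the nucleus and activates genes together with TCF/LEF factors. Secreted Wnt proteins bind Frizzled receptors and LRP5 or LRP6. The ubiquitin ligases RNF43 and ZNRF3 remove Frizzled from the cell surface, and R-spondins bound to LGR4, LGR5 or LGR6 block these ligases. DKK1 binds LRP5 and LRP6 and blocks the signal, while DKK3 is a divergent secreted relative whose effect on Wnt signalling varies with the cell. AXIN2, NKD1, RNF43, ZNRF3, LGR5, TCF7, LEF1 and DKK1 are known in various tissues as genes that the pathway itself can switch on, and several of them dampen it.

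Promoter sequence was taken from RefSeq (GRCh38.p14), which gave a window for 5 of the 10 members: LGR4, DKK1, TCF7, LEF1 and RNF43. The windows of DKK1, whose level differed between populations of HCC1806, and of LGR4, the R-spondin receptor read in both lines, are shown as the 250 bases before the annotated start, 5′ to 3′ on the gene's strand. Capitals mark each match to CTTTGA or CTTTGT on either strand, the core that TCF/LEF factors recognise. The DKK1 window is chr10:52314031-52314280 on the plus strand and the LGR4 window is chr11:27472791-27473040 on the minus strand.
DKK1: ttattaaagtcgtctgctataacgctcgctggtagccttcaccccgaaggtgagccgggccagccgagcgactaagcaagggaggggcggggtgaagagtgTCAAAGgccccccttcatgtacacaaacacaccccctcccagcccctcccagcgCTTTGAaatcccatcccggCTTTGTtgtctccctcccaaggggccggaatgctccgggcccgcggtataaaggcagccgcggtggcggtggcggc
LGR4: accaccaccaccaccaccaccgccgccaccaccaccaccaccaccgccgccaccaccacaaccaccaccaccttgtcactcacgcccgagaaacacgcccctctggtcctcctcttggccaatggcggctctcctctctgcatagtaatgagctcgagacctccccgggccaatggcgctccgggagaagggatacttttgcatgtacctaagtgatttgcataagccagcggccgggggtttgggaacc
The DKK1 window held 3 matches, which began 149, 95 and 76 bases before the start, and the LGR4 window held 0. Of all 35116 windows of this length, 22.8% held at least 1 match and 4.11% at least 2. TCF7 held 0 matches at its first annotated start and 2 at the second, RNF43 held 1 at each of its 2 starts, and LEF1 held 0. A match describes letters only and is no measured binding site.

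Total estimated counts ran from 3060629 to 4030292 per library in HCC1806 and from 2455699 to 3837940 in MDA-MB-231, so that 1 count is worth less than 1 CPM (counts scaled by library size). HCC1806 libraries held 1135 to 1934 counts of the basal keratin KRT5, against at most 1 in MDA-MB-231. The mesenchymal filament gene VIM showed the reverse, with 7598 to 11262 counts in MDA-MB-231 and at most 7 in HCC1806, although CDH2 of the same list of 6 mesenchymal markers was higher in HCC1806 (79 to 170 counts against 1 to 5) and SPARC had at most 4 counts in any library. Counts of ESR1, the oestrogen receptor gene, were 9 to 23 in HCC1806 and at most 1 in MDA-MB-231, those of the progesterone receptor gene PGR at most 1, and those of ERBB2, which encodes HER2, 110 to 215 and 78 to 149. Of 6 immune markers, only CD68, a lysosomal membrane protein, was tested (89 to 138 counts in HCC1806 and 236 to 421 in MDA-MB-231), while the leukocyte gene PTPRC had 3 counts or fewer in all libraries. The summed immune markers, mostly CD68, were 67 to 74.9 CPM in control MDA-MB-231, 89.4 to 107 with fusion, 105 to 108 with slippage and 102 to 119 with cytokinesis failure, and 26.4 to 40 CPM in HCC1806. Their part in the results was not tested. In MDA-MB-231, the third slippage library and the first cytokinesis library stood further from their replicates (chi-square per degree of freedom 2.33 to 2.55) than any other replicate pair of either line (1.28 to 1.9). Leaving out both changed no count of members called. Levels below are TMM-scaled CPM as mean ± SD of n = 3. Fold changes are log2 values ± SE, and a gene rose, fell or was called at an adjusted p below 0.05 in edgeR's quasi-likelihood F-test with Benjamini-Hochberg adjustment over all genes tested in a line. The count filter was passed by 7 of 10 members in HCC1806 (without LGR5, LEF1 and NKD1) and 8 of 10 in MDA-MB-231 (without NKD1 and RNF43). LGR5 and LEF1 passed a joint filter of both lines through their counts in MDA-MB-231.

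**Figure D1:**
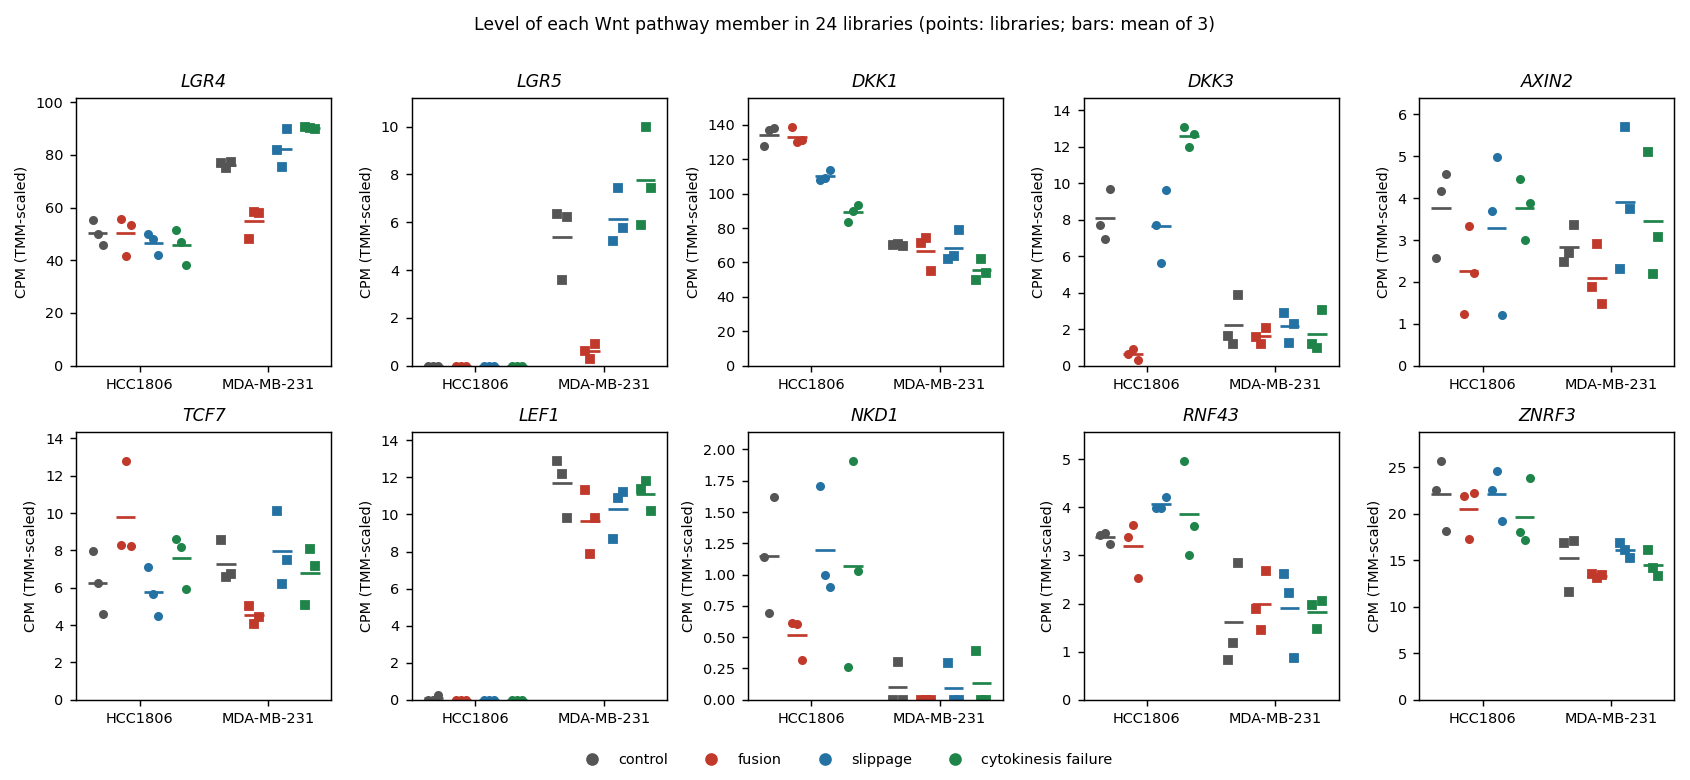
Level of each of the 10 members (y axis, TMM-scaled CPM from 0) in the 24 libraries, with HCC1806 as circles and MDA-MB-231 as squares; points are libraries, bars the mean of 3 replicates, and colours the 4 populations. DKK3 lies under 1 CPM in the 3 fusion libraries of HCC1806 and LGR5 under 1 CPM in the 3 fusion libraries of MDA-MB-231, while LGR5 and LEF1 sit at or near 0 throughout HCC1806.

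LGR5, a receptor best known as a marker of intestinal stem cells (chr12:71439129-71586310, plus strand), was read in MDA-MB-231 only. Its counts there were 23, 12 and 24 in control, 2, 1 and 3 in fusion-derived cells, 18, 30 and 20 after slippage and 15, 41 and 29 after cytokinesis failure. Every fusion library lay below the other 9 libraries of the line, and the other 3 populations overlapped. Against control, LGR5 changed by 0.19 ± 0.282 after slippage (edgeR adjusted p = 0.779). After cytokinesis failure the change was 0.56 ± 0.271 (95% interval 0.01 to 1.11, edgeR unadjusted p = 0.0452, adjusted p = 0.285). As levels, cytokinesis failure stood at 7.78 ± 2.1 CPM, slippage at 6.14 ± 1.17, control at 5.37 ± 1.55 and fusion at 0.603 ± 0.3. The fused cells thus held 11% of the control level, 9.68% of the slippage level and 7.45% of the level after cytokinesis failure, with a fitted change against control of -3.10 ± 0.471. In these bulk samples, fewer cells with LGR5 and less LGR5 RNA per cell cannot be told apart. That size depends on the scale: on log2(TPM + 1) it was -0.97 and on log2(TPM + 0.1) -2.55, since LGR5 levels are low. In HCC1806, LGR5 had 0 counts in all 12 libraries, which allows a level of up to 0.0732 CPM (3 counts over all libraries, counting error only). LGR5 lies opposite TSPAN8, a tetraspanin gene on the other strand, and no source states whether counting used strand, so reads of the 2 genes cannot be told apart with certainty. TSPAN8 counts in MDA-MB-231 summed to 346 in control, 131 in fusion, 310 after slippage and 247 after cytokinesis failure, and stayed at 3 or fewer per library in HCC1806.

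LGR4, the broadly expressed relative of LGR5 (chr11:27365961-27472790, minus strand), was read well in both lines. In MDA-MB-231 its levels were 76.8, 74.9 and 77.3 CPM in control and 48, 58.3 and 57.9 CPM in fusion-derived cells. After slippage they were 81.7, 75.5 and 89.7 CPM, and after cytokinesis failure 90.7, 90.1 and 89.8 CPM. The fusion libraries lay below all 9 others and the cytokinesis libraries above all others, by a margin over slippage as small as 89.8 against 89.7 CPM. The fitted change against control was -0.48 ± 0.0884 in fused cells, 0.11 ± 0.0813 after slippage (edgeR adjusted p = 0.524) and 0.24 ± 0.0808 after cytokinesis failure (unadjusted p = 0.00456, edgeR adjusted p = 0.0771). In HCC1806, by contrast, mean LGR4 levels spanned only 45.6 to 50.4 CPM over the 4 populations, and all groups overlapped. There the changes were -0.00 ± 0.104 with fusion, -0.11 ± 0.106 with slippage (95% interval -0.32 to 0.11) and -0.15 ± 0.103 with cytokinesis failure (-0.35 to 0.06).

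DKK3 (chr11:11963036-12009745, minus strand), the secreted Dickkopf relative, had counts of 27, 20 and 36 in control HCC1806 cells and 2, 3 and 1 in fusion-derived cells. Slippage libraries held 27, 17 and 32 counts and cytokinesis libraries 50, 44 and 49. The fusion libraries lay below the other 9, the cytokinesis libraries above them, and control and slippage overlapped. Mean levels were 12.6 ± 0.553 CPM after cytokinesis failure, 8.11 ± 1.42 in control, 7.65 ± 1.98 after slippage and 0.615 ± 0.297 in fused cells. Control cells thus held 13.3 times, slippage 12.5 times and cytokinesis failure 20.3 times the level of the fused cells, whose fitted change against control was -3.65 ± 0.415. On log2(TPM + 1) that change was -1.67, on log2(TPM + 0.1) -3.29, and without replicate 2 of fusion -4.03. In MDA-MB-231, DKK3 gave 3 to 15 counts per library, with means of 1.6 to 2.24 CPM and groups that overlapped. Its fitted change with fusion there, -0.51 ± 0.514, became 0.16 without replicate 3 of control, so no direction can be read.

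The cytokinesis-failure population of HCC1806 differed in the opposite direction. DKK3 rose there by 0.61 ± 0.211 against control (1.53-fold, edgeR adjusted p = 0.0312) and by 0.70 ± 0.214 against slippage (1.62-fold, adjusted p = 0.0299). Both calls changed with the setting. The first was lost with DESeq2 (adjusted p = 0.212), on log2(TPM + 0.1) (0.112) and when any of control replicates 1 or 2 or cytokinesis replicates 1, 2 or 3 was left out (0.0525 to 0.127). The second was lost on log2(TPM + 0.1) (0.113) and without slippage replicate 1 or 2 or any cytokinesis replicate (0.0532 to 0.198), and DESeq2 gave it no adjusted p. Slippage itself left DKK3 at -0.09 ± 0.238 against control (95% interval -0.56 to 0.39).

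DKK1, the LRP5 and LRP6 antagonist (chr10:52314281-52317657, plus strand), fell in HCC1806 after both slippage and cytokinesis failure. Its levels were 128, 137 and 138 CPM in control, 139, 130 and 131 in fused cells, 108, 109 and 114 after slippage and 83.7, 89.9 and 93.7 after cytokinesis failure. Control and fusion overlapped, every slippage library lay below both, and every cytokinesis library lay below slippage. Against control, DKK1 fell by 0.28 ± 0.0647 with slippage (110 ± 3.07 against 134 ± 5.48 CPM, edgeR adjusted p = 0.00311) and by 0.59 ± 0.0654 with cytokinesis failure (89.1 ± 5.03 CPM, adjusted p = 5.57e-12). Both calls held with every alternative tool, filter, scaling and left-out replicate tried. The step from slippage to cytokinesis failure, a fall of 0.31 ± 0.0677 (adjusted p = 0.00105), held when any replicate was left out but not on log2(TPM + 1) (0.0545) or log2(TPM + 0.1) (0.0549). With fusion the fitted change was -0.01 ± 0.0629.

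In MDA-MB-231, DKK1 stood at 69.9, 70.7 and 69.3 CPM in control, 71.2, 74.3 and 55.2 in fused cells, 62.3, 63.5 and 78.8 after slippage and 49.9, 62.2 and 54 after cytokinesis failure. The cytokinesis libraries lay below control, narrowly below slippage (62.2 against 62.3 CPM) and overlapped the fused cells. The change after cytokinesis failure, -0.32 ± 0.104, had an unadjusted p of 0.00409 and an edgeR adjusted p of 0.0719. It passed the threshold with no count filter (0.022), in a fit of the control and cytokinesis libraries alone (0.0286) and without cytokinesis replicate 2 (0.0382). After slippage the change was -0.04 ± 0.0998 (95% interval -0.24 to 0.17). The difference of the DKK1 change between lines was 0.25 ± 0.112 for slippage (edgeR adjusted p = 0.262) and 0.27 ± 0.116 for cytokinesis failure (0.174), so a difference between lines was not called.

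**Figure D2:**
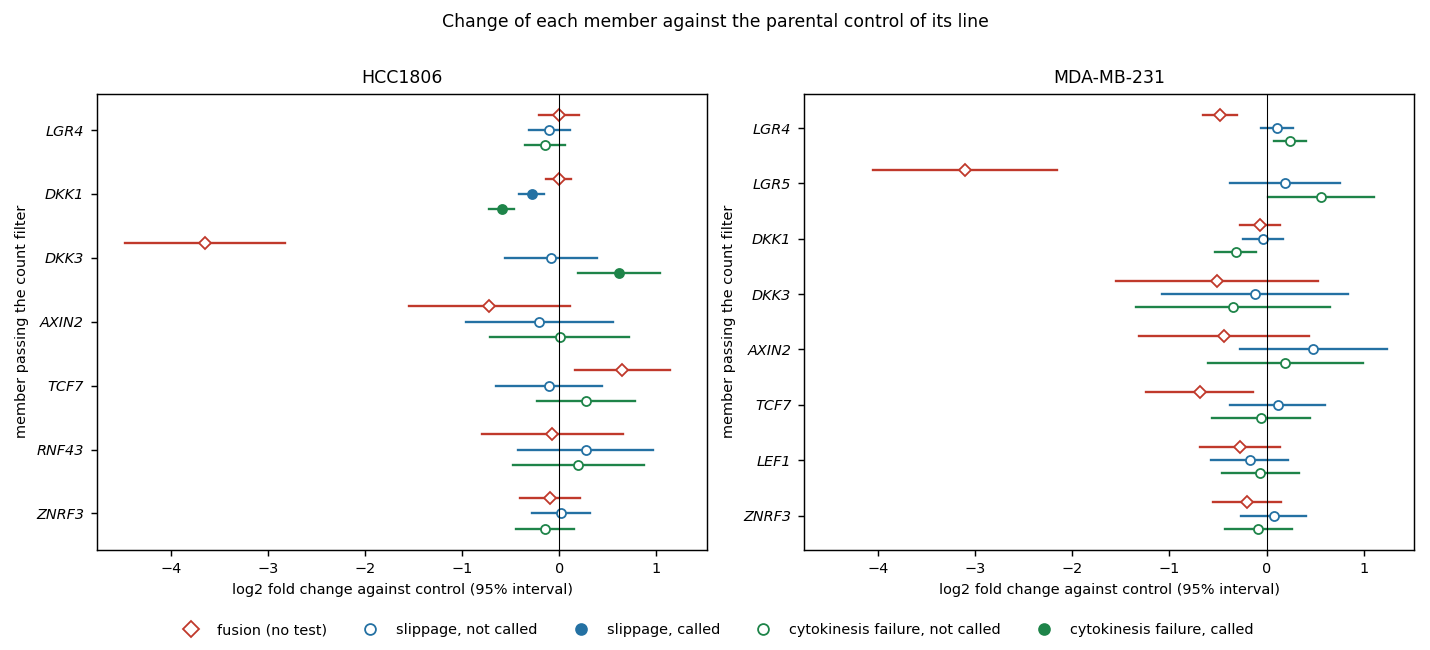
Fitted log2 fold change against the control of the same line (x axis, with 95% interval) for the members that passed the count filter, in HCC1806 (left) and MDA-MB-231 (right); diamonds show fusion, given without a test, and filled circles mark edgeR calls. DKK3 in HCC1806 (-3.65) and LGR5 in MDA-MB-231 (-3.10) with fusion lie far to the left, and the filled circles are DKK1 with slippage and with cytokinesis failure and DKK3 with cytokinesis failure, all in HCC1806.

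The feedback genes were read at low depth, except ZNRF3. AXIN2, a scaffold of the complex that degrades beta-catenin and a common readout of Wnt activity (chr17:65528563-65561648, minus strand), had 4 to 17 counts per library in HCC1806 and 5 to 23 in MDA-MB-231. Its mean levels were 2.27 to 3.77 CPM and 2.09 to 3.92 CPM, lowest in the fused cells of both lines (2.27 ± 1.05 and 2.09 ± 0.738), where single libraries overlapped the other populations. With slippage and cytokinesis failure its changes were -0.21 ± 0.382 and 0.00 ± 0.359 in HCC1806, and 0.48 ± 0.374 and 0.19 ± 0.394 in MDA-MB-231. The 95% interval for cytokinesis failure in HCC1806 ran from -0.71 to 0.72, which is wide.

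ZNRF3, which clears Frizzled receptors from the surface (chr22:28883572-29057488, plus strand), was steadier. Its group means ran from 19.7 to 22.1 CPM in HCC1806 and from 13.3 to 16.1 CPM in MDA-MB-231, and its changes with slippage and cytokinesis failure lay between -0.15 ± 0.151 and 0.08 ± 0.165, none of them called. Its partner RNF43 (chr17:58352500-58417534, minus strand) had 8 to 19 counts per library in HCC1806, with means of 3.19 to 4.06 CPM, and 3 to 11 in MDA-MB-231, where it missed the count filter. RNF43 overlaps SUPT4H1, an elongation factor gene with 6048 counts over all libraries, so its few counts are uncertain. NKD1, an inhibitor of Dishevelled (chr16:50548396-50649249, plus strand), had 1 to 7 counts per library in HCC1806, and 3 counts in all over the 12 MDA-MB-231 libraries. In HCC1806, NKD1 counts summed to 12 in control, 12 after slippage, 12 after cytokinesis failure and 5 in fused cells. It missed the count filter, and without that filter its fitted changes in HCC1806 were 0.04 ± 0.666 with slippage and -0.16 ± 0.661 with cytokinesis failure, neither called.

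Of the transcription factor genes, TCF7 was read in both lines and LEF1 in MDA-MB-231. TCF7, which encodes TCF1 (chr5:134108218-134148210, plus strand), stood in MDA-MB-231 at 8.54, 6.57 and 6.72 CPM in control, 5.02, 4.08 and 4.45 in fused cells, 10.1, 6.21 and 7.47 after slippage and 5.1, 8.08 and 7.16 after cytokinesis failure. The fused cells lay below all 9 other libraries, by a narrow margin (5.02 against 5.1 CPM), with a fitted change of -0.69 ± 0.274. In HCC1806 the fused cells stood at 8.31, 12.8 and 8.26 CPM, above the control libraries (7.98, 6.25 and 4.58) and overlapping the cytokinesis libraries (8.63, 8.17 and 5.95). Their fitted change against control was 0.65 ± 0.248, of opposite sign to that in MDA-MB-231. Neither value is tested, and the difference between the lines is not either. TCF7 overlaps SKP1, an abundant gene on the other strand with 39057 counts over all libraries, which leaves its own count uncertain. LEF1 (chr4:108047548-108168932, minus strand) was read in MDA-MB-231 at 27 to 48 counts per library, with means of 9.65 ± 1.72 CPM in fused cells, 10.3 ± 1.38 after slippage, 11.1 ± 0.794 after cytokinesis failure and 11.7 ± 1.64 in control, and the groups overlapped. In HCC1806 it gave 1 count over the 12 libraries.

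Counted over the members, the tested contrasts gave few calls. In HCC1806, 1 of 7 tested members (DKK1) was called with slippage, where 3.33% of all 11467 tested genes were called, and 2 of 7 (DKK1 lower, DKK3 higher) with cytokinesis failure, where 17% were. Between cytokinesis failure and slippage the same 2 were called of 7, beside 6.8% of all genes. In MDA-MB-231, edgeR called 0 of 8 members with slippage (6.18% of 11424 genes), DESeq2 called 0 of the 2 to which it gave an adjusted p, and 0 members had an unadjusted p under 0.05 in edgeR. With cytokinesis failure edgeR called 0 of 8 (background 4.64%) and DESeq2 0 of the 4 with an adjusted p, and 3 (LGR4, LGR5 and DKK1) had an unadjusted p under 0.05. Between cytokinesis failure and slippage both tools called 0 of 8 (background 3.18%), and 1 (DKK1, 0.0105) had an unadjusted p under 0.05. The slippage and cytokinesis contrasts of a line share its control libraries with each other and with the fusion contrast. The median member change in these contrasts ran from -0.17 (MDA-MB-231, cytokinesis failure against slippage) to 0.09 (MDA-MB-231, slippage), while the median over all tested genes ran from -0.00 to 0.01.

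For fusion, which chose the set, only positions of the libraries are counted, and nothing is read from them. Fusion libraries lay below all 9 other libraries of the line for 1 of 7 tested members in HCC1806 (4.64% of all genes) and for 3 of 8 in MDA-MB-231 (LGR5, LGR4 and TCF7, 6.51% of all genes). DKK3 and LGR4 lie on the same chromosome arm, 11p. DKK3 was low in the fused cells of HCC1806, where LGR4 changed by -0.002 ± 0.104 against control. LGR4 was low in the fused cells of MDA-MB-231, where DKK3 changed by -0.51 ± 0.514 with groups that overlapped. A part of the shared arm was not tested.

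The parental lines themselves differed in most members, as in most genes. Of 9 members tested, 7 were called between control MDA-MB-231 and control HCC1806 (76.2% of all 12563 genes were called). Among the 7, LGR5 and LEF1 passed the count filter within MDA-MB-231 alone and RNF43 within HCC1806 alone, so the filter itself favoured the direction of these 3. LGR4 was higher in MDA-MB-231 by 0.60 ± 0.0952 (76.3 against 50.4 CPM, edgeR adjusted p = 3.87e-08). LGR5 had 59 counts in the 3 MDA-MB-231 controls and 0 in the 3 HCC1806 controls. That is 18.3-fold higher when set against a floor of 3 counts over the group, and the exact 95% counting interval began at 14.4-fold. LEF1 had 126 counts against 1, a ratio of 117 with an exact 95% counting interval of 20.7 to 4670. DKK1 was lower in MDA-MB-231 by 0.94 on the log2 scale (-0.94 ± 0.077, 70 against 134 CPM, adjusted p = 8.59e-19), and DKK3 changed by -1.82 ± 0.33 (2.24 against 8.11 CPM, adjusted p = 9.59e-07).

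Among the negative regulators, ZNRF3 was lower in MDA-MB-231 (-0.52 ± 0.161, adjusted p = 0.00307). RNF43 was lower too (-1.01 ± 0.425, adjusted p = 0.0272), a call lost with DESeq2 (0.0652) and without replicate 1 or 2 of either control group (0.0508 to 0.163). NKD1 had 12 counts in control HCC1806 and 1 in control MDA-MB-231, a ratio of 0.0776 (95% counting interval 0.00181 to 0.524), and without the filter its change was -3.24 ± 1.11 (edgeR adjusted p = 0.0081). AXIN2 (-0.39 ± 0.394) and TCF7 (0.22 ± 0.26) were not called. Control MDA-MB-231 cells thus held more RNA of LGR4, LGR5 and LEF1, and less of DKK1, DKK3 and ZNRF3, than HCC1806.

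The genes whose levels followed DKK3 most closely over the 12 HCC1806 libraries were TNC (Pearson r of log2 CPM = 0.981), DIAPH3 (0.966) and ANKH (0.962), out of 10747 genes of sufficient level. TNC, the matrix glycoprotein tenascin-C, averaged 7.22 CPM in control, 1.24 in fused cells, 7.4 after slippage and 13.9 after cytokinesis failure. DIAPH3, a formin that builds actin filaments, averaged 144, 92.7, 147 and 166 CPM in the same groups, and ANKH, a pyrophosphate transporter, 86.3, 64.9, 85.7 and 93.7 CPM. For LGR5 over the 12 MDA-MB-231 libraries the closest of 10823 genes were EREG (0.978), KIAA1644 (0.972) and PFN2 (0.97). EREG, which encodes the EGF receptor ligand epiregulin, averaged 50 CPM in control, 18.6 in fused cells, 59.3 after slippage and 65.7 after cytokinesis failure. PFN2, a profilin that binds actin, averaged 96.9, 42.8, 92.2 and 113 CPM. These correlations describe 12 libraries that fall into 4 groups and carry no p. The genes were picked for following DKK3 or LGR5, so low levels in the same fused cells follow from the choice.

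**Figure D3:**
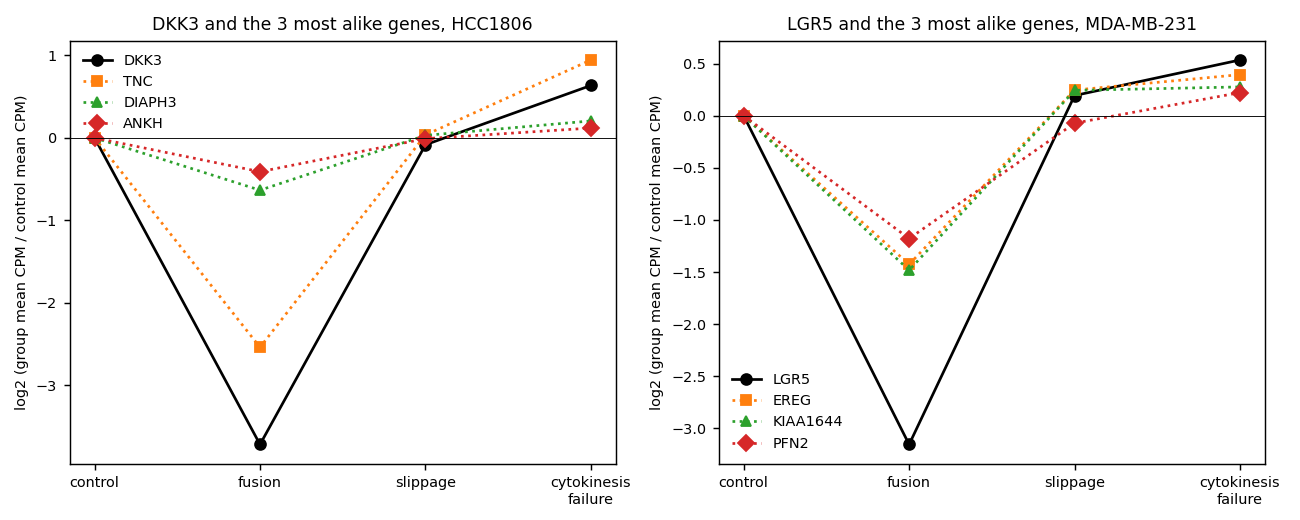
Group mean relative to control on a log2 scale (y axis) in the 4 populations (x axis) for DKK3 and its 3 most alike genes in HCC1806 (left) and for LGR5 and its 3 most alike genes in MDA-MB-231 (right); lines only join the points of a gene. All of the genes shown are lowest in fused cells, which follows from how the alike genes were picked. DKK3 and LGR5 are further below control there than the genes set beside them.

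The rest of the pathway was followed in a list of 104 other genes, 103 of them in the tables, of which 62 were tested in HCC1806 and 55 in MDA-MB-231. In HCC1806 with cytokinesis failure, 7 rose and 9 fell (8.37% and 8.63% of all tested genes did), with a median change of 0.02 beside 0.00 over all genes. Among 8 tested target genes 1 rose and 4 fell, MYC by 1.05 ± 0.0735 (55.2 ± 0.784 against 115 ± 8.38 CPM, edgeR adjusted p = 1.36e-21) and the adhesion receptor CD44 by 0.52 ± 0.033 (1090 against 1560 CPM, 5.88e-24). Among 12 receptors 1 rose and 1 fell, the latter FZD8, a Frizzled Wnt receptor, by 1.18 ± 0.199 (6.88 ± 0.853 against 15.6 ± 1.72 CPM, 2.84e-06). Among 13 nuclear factors 1 rose, the TCF-family gene TCF7L1, by 0.94 ± 0.0938 (83.7, 64 and 73 CPM against 38.2, 36.5 and 40.2, 1.11e-13). In fused HCC1806 cells TCF7L1 lay at 20.9, 20 and 22.9 CPM, below control, as did DKK3. Of 8 ligand genes 3 rose and 1 fell, of 4 antagonists 1 rose and 2 fell, and of 17 cytoplasmic relay genes 1 fell.

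**Figure D4:**
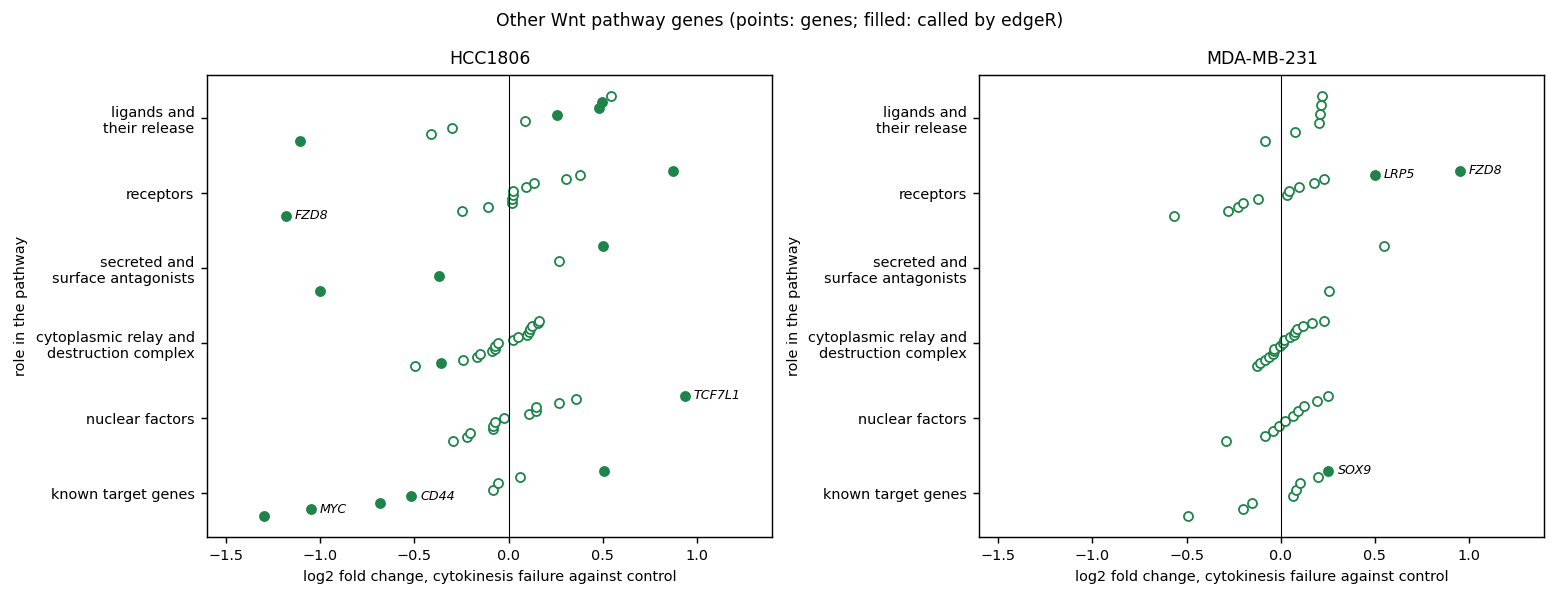
Log2 fold change of cytokinesis failure against control (x axis) for each tested pathway gene outside the 10 members, by role (y axis; the spread within a role serves only to separate points), in HCC1806 (left) and MDA-MB-231 (right); filled points are edgeR calls and names follow the rule of smallest adjusted p. HCC1806 shows 16 filled points on both sides of 0, and MDA-MB-231 shows 3, all to the right, among them FZD8, which lies to the left in HCC1806.

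Slippage in HCC1806 gave fewer calls in the list, 1 higher and 3 lower of 62 (1.53% and 1.81% of all genes). MYC fell by 0.42 ± 0.0696 (85.3 ± 3.85 CPM, edgeR adjusted p = 1.63e-05) and CD44 by 0.26 ± 0.0329 (6.17e-09), so that both lay between control and cytokinesis failure, as DKK1 did. CCND1, cyclin D1, rose by 0.18 ± 0.0403 (0.00216), a call lost on log2(TPM + 1) (0.341) and without control replicate 2 (0.0521). TCF7L2 stood at -0.34 ± 0.103 (0.0499), a call lost with DESeq2 (0.304), on log2(TPM + 1) (0.231) and with any of control replicates 1 or 3 or slippage replicates 1 or 3 left out (0.0571 to 0.379). Between cytokinesis failure and slippage 1 rose (TCF7L1) and 5 fell (CD44, MYC, DVL1, and, named after their values were seen, CCND1 and FZD8), beside 2.72% and 4.08% of all genes. Over all genes that split, 312 higher and 468 lower, turned to 281 higher and 91 lower on log2(TPM + 1). Of the list genes, DVL1 (-0.30 ± 0.0857, 0.017) was lost with DESeq2 (0.124), on log2(TPM + 1) (0.248) and without slippage replicate 1 or 2 or cytokinesis replicate 1 or 3 (0.0539 to 0.139), and CD44 (-0.25 ± 0.0332) on log2(TPM + 1) (0.084). CCND1 (-0.12 ± 0.0399, edgeR adjusted p = 0.0439) and FZD8 were not recomputed under alternatives for this contrast.

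In MDA-MB-231, 3 of 55 listed genes rose with cytokinesis failure and 0 fell (2.29% and 2.35% of all genes). FZD8 rose by 0.95 ± 0.173, with 22.8, 31.1 and 20.2 CPM against 11.8, 13.7 and 13.2 (edgeR adjusted p = 0.000274), a call that held under every alternative tried. The co-receptor gene LRP5 (0.50 ± 0.134, adjusted p = 0.0196) and SOX9 (0.25 ± 0.0773, 0.0475) were called as well. With DESeq2 their adjusted p was 0.0858 and 0.17, and on log2(TPM + 1) 0.0911 and 0.273. LRP5 was also lost without control replicate 1 or 2 or cytokinesis replicate 1 or 2 (0.0851 to 0.142), and SOX9 without any control replicate or cytokinesis replicate 2 or 3 (0.0685 to 0.26). With slippage 2 rose (FZD8 and SOX9) and 3 fell (FZD7, ROR1 and, named after its value was seen, EPHB2), beside 3.27% and 2.91% of all genes. Of these, EPHB2 was not recomputed under alternatives, and the other 4 each lost the call under some of them. FZD7 (-0.46 ± 0.121) was lost with DESeq2 (0.056), on log2(TPM + 1) (0.0865) and when control library 2 or 3 or slippage library 3 was dropped (0.0581 to 0.103). FZD8 (0.63 ± 0.179) was lost on log2(TPM + 1) (0.128) and without any control replicate or slippage replicate 2 (0.0669 to 0.251). SOX9 (0.29 ± 0.0764) was lost with DESeq2 (0.0618), on log2(TPM + 1) (0.226) and when control library 1 or 2 or slippage library 2 or 3 was dropped (0.0546 to 0.125). The receptor gene ROR1 (-0.38 ± 0.0993) was lost on log2(TPM + 1) (0.0865) and without control replicate 3 or slippage replicate 1 (0.0511 to 0.111). Between cytokinesis failure and slippage 2 rose and 0 fell (1.08% and 2.1% of all genes), the Eph receptor gene EPHB2 (0.32 ± 0.0757) and ROR1 (0.43 ± 0.0995). EPHB2 was lost with DESeq2 (0.0662), on log2(TPM + 1) (0.0845) and without slippage replicate 3 or cytokinesis replicate 2 (0.053 to 0.0825). ROR1 was lost on log2(TPM + 1) (0.0704), on log2(TPM + 0.1) (0.0728) and without both noisier libraries (0.0512).

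With fusion, as a description, the largest changes in HCC1806 among listed genes whose log2 CPM averaged 2 or more were those of WNT5A (-1.04 ± 0.404), TCF7L1 (-0.85 ± 0.126), the Wnt-binding antagonist SFRP1 (-0.81 ± 0.303) and SOX9 (-0.56 ± 0.268). In MDA-MB-231, at the same level limit, they were the target gene SP5 (-0.74 ± 0.24), PYGO1 (0.44 ± 0.281), the receptor ROR1 (-0.44 ± 0.102) and WNT3 (-0.43 ± 0.301). Some genes below that limit, named after their values were seen, had larger fitted changes: ROR2 (-1.46 ± 0.442) and PYGO1 (-1.17 ± 0.471) in HCC1806, and WNT5A (-1.82 ± 0.578, 0.594 against 2.17 CPM) in MDA-MB-231. WNT5A was thus lower than control in the fused cells of both lines. On log2(TPM + 1) the changes in HCC1806 were smaller, -0.31 for WNT5A and -0.42 for SFRP1, as was that of PYGO1 in MDA-MB-231 (0.13). In MDA-MB-231, SP5 stood at 9.41, 4.66 and 5.64 CPM in the fused cells (6.57 ± 2.51) and at 10.9 ± 0.611 CPM in control. The fused libraries overlapped those after slippage and those after cytokinesis failure. The 8 tested target genes of the list had a median change of 0.08 with fusion there. Between the parental lines, 24 of 66 tested list genes were higher in MDA-MB-231 and 36 lower (37.4% and 38.8% of all genes). SP5 (118 counts against 0, at least 36.6-fold), FZD1 (12.2-fold) and FZD7 (10.8-fold) were higher there, and WNT10A (0 against 173 counts, at least 62-fold), WNT7A (at least 46.6-fold) and the antagonist SOSTDC1 (at least 67.3-fold) were lower. Of the 66 list genes, 51 passed the count filter within both lines. For the rest, among them SP5, WNT5B, WNT10A, WNT7A, SOSTDC1 and TLE4, the filter itself favoured the direction.

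The change of each member against control was also compared between lines, for the 6 members tested in both. EdgeR called 0 of 6 for slippage (3.54% of all genes) and 0 of 6 for cytokinesis failure (6.53%). DESeq2 called 0 of the 2 and 0 of the 5 to which it gave an adjusted p. At an unadjusted p under 0.05 there was 1 (DKK1) for slippage and 2 (LGR4 and DKK1) for cytokinesis failure. LGR4 came closest, with a change after cytokinesis failure that was higher in MDA-MB-231 than in HCC1806 by 0.38 ± 0.134 (edgeR adjusted p = 0.0713). It passed the threshold in a fit of the groups compared alone (0.0389), without HCC1806 control replicate 3 (0.0446) and without HCC1806 cytokinesis replicate 1 (0.0288). DKK3 differed by -0.96 ± 0.512 (95% interval -1.98 to 0.06, adjusted p = 0.307), an interval wide enough to hold both no difference and a large one.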

How the data were processed

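RNA was read by TAGseq, which sequences the 3′ ends of polyadenylated transcripts, in 24 libraries. Per the submitters' processing notes the tools were STAR and Salmon and the build GRCh38, and the annotation and strand setting are not given in the sources used here. The authors deposited estimated counts per gene (4.41% not whole, rounded here) and, as a second deposited table, TPM. All columns were mapped to labelled samples. The 10 members and all gene lists were chosen with earlier results of these data known.

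The tests were quasi-likelihood F-tests of edgeR 4.0.16 under R 4.3.3 (robust fit, TMM factors, filterByExpr, Benjamini-Hochberg adjustment), each line on its 12 libraries and 4 groups, and line differences on all 24. CPM use the TMM factors of the 24 libraries. A standard error is the fold change divided by the root of F. P-values measure the spread between replicates of a population, and counting intervals and floors cover counting error only. Alternatives were DESeq2 1.42.0, RLE factors, no filter, a stricter filter (minimum count 30), limma 3.58.1 on log2(TPM + 1) and log2(TPM + 0.1), the groups compared alone, a replicate block, each replicate left out, and both noisier libraries left out. Named list genes are, per tested contrast within a line, up to 4 called genes of smallest adjusted p, for fusion the 4 of largest change and between control lines up to 4 per direction (mean log2 CPM of at least 2), for line differences up to 3, and 3 genes of highest correlation for DKK3 and LGR5. The low-pass genome sequencing of the study was not analysed here.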

Additional observations from a re-analysis of the deposited data

Results flagged for a closer look

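In the test of line differences, 3 listed pathway genes outside the 10 members changed against control by a different amount in MDA-MB-231 than in HCC1806, for both slippage and cytokinesis failure. Of 51 listed genes tested in both lines, 3 were called for slippage and 5 for cytokinesis failure, where 4.17% and 7.64% of all 10369 genes tested in both lines were. For CD44, the change was higher in MDA-MB-231 by 0.35 on the log2 scale with slippage (edgeR adjusted p = 1.81e-05) and by 0.58 with cytokinesis failure (1.82e-12). For MYC, the difference was 0.48 (0.00341) and 0.89 (1.35e-08). For the receptor gene FZD8, it was 1.15 (0.00281) and 2.13 (2.78e-09), and FZD8 fell in HCC1806 and rose in MDA-MB-231 after cytokinesis failure. All 6 differences kept their call under every alternative that gave an adjusted p, with DESeq2 giving none for FZD8 with slippage. The other 2 listed genes, named after their values were seen, differed with cytokinesis failure, SOX9 by 1.55 (6.51e-05) and TPBG by 0.62 (0.0112), while 0 of 6 members did. The differences of SOX9 and TPBG were not recomputed under alternatives. SOX9 was low in HCC1806, at 8.73 ± 2.68 CPM in control and 3.55 ± 1.42 after cytokinesis failure.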

How the results depend on the processing

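No member changed sign while called. Of 1827 single values recomputed, 1720 kept their side of the threshold or, where not tested, their size. Among these 1720, 60 changed sign with no call under either setting. Of the others, 89 lost the call, 7 gained it and 11 without a test moved by more than the replicate spread. The number of members called (2) in HCC1806 cytokinesis failure against control was 1 with DESeq2, 1 on log2(TPM + 0.1) and 1 to 2 with a replicate left out. Against slippage (2) it was 1 with DESeq2, 1 on log2(TPM + 1), 0 on log2(TPM + 0.1) and 1 to 2 with a replicate left out. In MDA-MB-231 cytokinesis failure against control (0) it was 1 with no filter, 2 in a fit of the groups compared and 0 to 1 with a replicate left out. The cytokinesis difference between lines (0) gave 1 in the groups compared and 0 to 1 with a replicate left out. In HCC1806 cytokinesis failure against slippage DESeq2 gave an adjusted p to 3 of the 7 members, which by itself leaves DKK3 without a call. Among the members the lost calls are those of DKK3, DKK1 and, between the control lines, RNF43, the gained ones those of DKK1 and LGR4, and most lost calls belong to listed genes outside the members. Where not stated, the cause was not tested. LGR5, DKK3, AXIN2, RNF43 and NKD1 rest on few counts, which limits what could be detected.

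Over all genes, DESeq2 called 142 with slippage in HCC1806 (edgeR 382), 975 with cytokinesis failure (1950) and 298 between them (780). In MDA-MB-231 it called 343 (706), 302 (530) and 173 (363). For the line differences it called 284 with slippage (445) and 515 with cytokinesis failure (820), the latter split 308 higher and 207 lower (edgeR 404 and 416). On log2(TPM + 1), calls over all genes split into 853 higher and 453 lower with cytokinesis failure in HCC1806 (edgeR on counts 960 and 990), 281 and 91 against slippage (312 and 468), and 21 and 67 with slippage (175 and 207). In MDA-MB-231 they were 93 and 76 with slippage (373 and 333), 86 and 92 with cytokinesis failure (262 and 268) and 8 and 60 between them (123 and 240), and for the slippage line difference 184 and 83 (236 and 209). With 1 replicate left out, calls in the same contrasts fell to as few as 217 (HCC1806 slippage), 421 (HCC1806 cytokinesis failure against slippage), 370 (MDA-MB-231 slippage), 318 (MDA-MB-231 cytokinesis failure) and 212 (between them), and the last was 186 in a fit of the groups compared.

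Replicate numbers did not pair the samples: the deviations of same-numbered libraries correlated at -0.097 to 0.077 in HCC1806 and at -0.191 to 0.0884 in MDA-MB-231. With the replicate number as a block the members called stayed at 1, 2 and 2 in HCC1806, 0 in each MDA-MB-231 contrast, 7 between control lines and 0 for both line differences. Among the listed genes, the block ended the calls of TCF7L2 with slippage in HCC1806 (adjusted p = 0.0504) and SOX9 with cytokinesis failure in MDA-MB-231 (0.0714).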
